A study of Homo sapiens with 28 samples.

Results

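Long non-coding RNA (lncRNA) genes that stand apart from protein-coding genes were examined for H3K36me2 and for the carboxy-terminal domain (CTD) of the histone methyltransferase ASH1L, before and after UV irradiation. A gene was a member when GENCODE release 44 lists it on an autosome as a lncRNA gene of at least 5 kb that overlaps no protein-coding gene on either strand and lies more than 5 kb from any. Of 18390 autosomal lncRNA genes, 9980 reached 5 kb, 5767 of these overlapped no protein-coding gene and 4820 were members, against 16551 protein-coding genes of the same minimum length. The rule uses the annotation alone and no peak level.

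The measurements were 10 lists of broad ChIP-seq peaks from U2OS cells, a human osteosarcoma line. H3K36me2 was immunoprecipitated from wild-type cells, with 2 lists without UV and 2 lists taken 3 h after UV-C irradiation at 20 J/m2. The Flag-tagged CTD was immunoprecipitated from ASH1L-/- cells, with 3 lists without UV and 3 lists taken 3 h after the same dose. The ASH1L-/- cells came from isolated CRISPR/Cas9 colonies, and the CTD was expressed from a transfected vector with a CMV promoter. How its level compares with that of endogenous ASH1L is not given in the lists. The H3K36me2 peaks were called against input DNA pooled over duplicates. The CTD peaks were called against empty-vector ChIP from the same ASH1L-/- cells, pooled at 3 h and unpooled without UV. This difference in the control and the UV treatment cannot be told apart. Antibody, genotype, transfection and control also differed together between the H3K36me2 and CTD lists. The labels call the replicates biological, and peak lists hold no transcript levels with which the cell line or the expression of a lncRNA could be checked.

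A lncRNA gene is transcribed into RNA that encodes no protein, and many of these transcripts stay in the nucleus. H3K36me2 is the dimethyl mark on lysine 36 of histone H3. It is laid down by methyltransferases of the NSD family and by ASH1L, and is known as a broad mark of intergenic regions and gene bodies. ASH1L carries a SET domain, which methylates histones, with a bromodomain, a PHD finger and a BAH domain in its carboxy-terminal part. UV light links neighbouring pyrimidines into lesions that nucleotide excision repair removes.

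Each list held exactly 500000 peaks, whatever the sample, so the mean density over the autosomes was nearly fixed, at 178.4 to 179.1 peak centres per Mbp in the 10 lists. A density in one class of region is therefore a share of a fixed number of peaks, and a higher density in one class goes with a lower one elsewhere. The percent of bases covered also depends on how wide the peaks are. The 4820 members held 265.3 Mbp of sequence without assembly gaps, of which 12.3 Mbp were exons and 253.0 Mbp introns. Their median length was 23545 bp, their median GC content 40.8% and their median distance to the nearest protein-coding gene 83629.5 bp. The protein-coding genes had a median GC content of 44.3%. Another member overlapped 1427 of the members, so these share peaks.

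Peaks were weak in both experiments, in lncRNA genes as over all autosomes. Fold enrichment over the control, as the peak caller gave it, had a median of 1.72 to 1.91 in members over the 10 lists. Over all autosomes the median was 1.72 to 1.89. The highest value in a member was 4.14 to 4.49 in the H3K36me2 lists and 2.86 to 3.45 in the CTD lists. A −log10 p of 2 or more, the stated cutoff, was reached by 42.6% to 47.7% of the H3K36me2 peaks in members and by 5.84% to 8.66% of the CTD peaks there. Over all autosomes these shares were 41.0% to 45.1% and 5.90% to 8.42%. Sites in members with a peak in all 4 H3K36me2 lists numbered 21434, and those with a peak in all 6 CTD lists 1927.

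The 300 bases around the centres of some of the strongest such sites are shown as examples of the sequence under recurrent peaks. From among the sites with the highest fold enrichment in their weakest list, 2 for H3K36me2 and 1 for the CTD are printed from the plus strand of hg38, 5′ to 3′, with each CG dinucleotide, the place where cytosine methylation occurs, in capitals. The first H3K36me2 site, chr6:11419335-11419634, lies in introns of ENSG00000242753 and ENSG00000233656, both on the plus strand, and its fold enrichment was 3.16 and 3.64 without UV and 3.64 and 3.56 at 3 h. A second site, chr2:156827512-156827811, lies in introns of ENSG00000287048 and ENSG00000286889, also on the plus strand, with 3.39 and 3.44 without UV and 3.05 and 4.14 at 3 h. A CTD site, chr5:4860270-4860569, lies in an intron of ENSG00000248973, which is on the minus strand, with 2.04, 2.12 and 2.15 without UV and 1.89, 2.01 and 1.88 at 3 h.
ENSG00000242753 and ENSG00000233656, H3K36me2: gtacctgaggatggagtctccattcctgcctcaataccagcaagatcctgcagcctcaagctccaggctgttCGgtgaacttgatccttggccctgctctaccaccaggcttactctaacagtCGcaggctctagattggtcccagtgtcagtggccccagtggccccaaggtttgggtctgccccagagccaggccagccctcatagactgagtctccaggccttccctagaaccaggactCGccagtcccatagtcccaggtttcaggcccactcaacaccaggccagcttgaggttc
ENSG00000287048 and ENSG00000286889, H3K36me2: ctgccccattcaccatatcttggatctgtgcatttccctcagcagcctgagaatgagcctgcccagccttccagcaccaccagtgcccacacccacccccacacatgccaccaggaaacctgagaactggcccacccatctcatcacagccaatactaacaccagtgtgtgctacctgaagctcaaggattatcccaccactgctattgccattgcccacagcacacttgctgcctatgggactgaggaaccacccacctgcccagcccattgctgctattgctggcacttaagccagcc
ENSG00000248973, CTD: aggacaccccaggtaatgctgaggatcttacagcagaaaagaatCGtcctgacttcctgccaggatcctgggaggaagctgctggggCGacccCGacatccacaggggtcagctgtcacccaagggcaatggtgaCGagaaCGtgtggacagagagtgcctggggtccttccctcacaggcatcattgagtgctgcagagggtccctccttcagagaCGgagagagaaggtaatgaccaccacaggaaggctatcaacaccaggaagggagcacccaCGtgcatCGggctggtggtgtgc
The H3K36me2 windows hold 3 and 0 CG, and the CTD window 8. All 3 windows are richer in GC (56.3% to 58.3%) than the median member. The letters CG, which read the same on both strands, were found in 83.5% to 88.5% of all windows of 300 bases around the centres of peaks in members, depending on the list. The mean was 3.19 to 3.46 CG per window in the H3K36me2 lists and 2.72 to 3.24 in the CTD lists. The CG counts of the printed windows therefore do not stand for all peaks of either antibody.

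In the H3K36me2 lists, lncRNA genes held more peaks per Mbp than protein-coding genes, and in the CTD lists they held fewer. The H3K36me2 density of lncRNA genes was 201.0 and 198.6 peaks per Mbp in unirradiated cells and 213.5 and 214.3 at 3 h. In protein-coding genes it was 165.9 and 169.0 without UV and 160.8 and 159.0 at 3 h. Values for H3K36me2 in the 2 kinds of gene did not overlap. The CTD density of lncRNA genes was 156.4, 161.5 and 170.8 peaks per Mbp in unirradiated cells and 165.1, 160.5 and 153.2 at 3 h. In protein-coding genes it was 199.2, 198.3 and 193.5 without UV and 196.9, 197.9 and 201.4 at 3 h. Here too the 2 kinds of gene did not overlap, in the opposite order. Taken within each list, the density of lncRNA genes was 1.26-fold that of protein-coding genes for H3K36me2 (log2 ratio 0.34, 0.23 to 0.43 over 4 lists). The two-sided exact sign-flip permutation test gave p = 0.125, the smallest that 4 lists allow. For the CTD the ratio was 0.815-fold (log2 ratio −0.30, −0.39 to −0.18 over 6 lists), with an exact p of 0.03125, the smallest that 6 lists allow. The log2 ratio of lncRNA to protein-coding density was higher by 0.63, or 1.55-fold, in the 4 H3K36me2 lists than in the 6 CTD lists (exact permutation test, p = 0.00476, the smallest possible). Adjusted by Benjamini-Hochberg over the 11 exact tests made on lists, these 3 permutation p-values became 0.344, 0.172 and 0.0524, so that none passed 0.05.

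**Figure D1:**
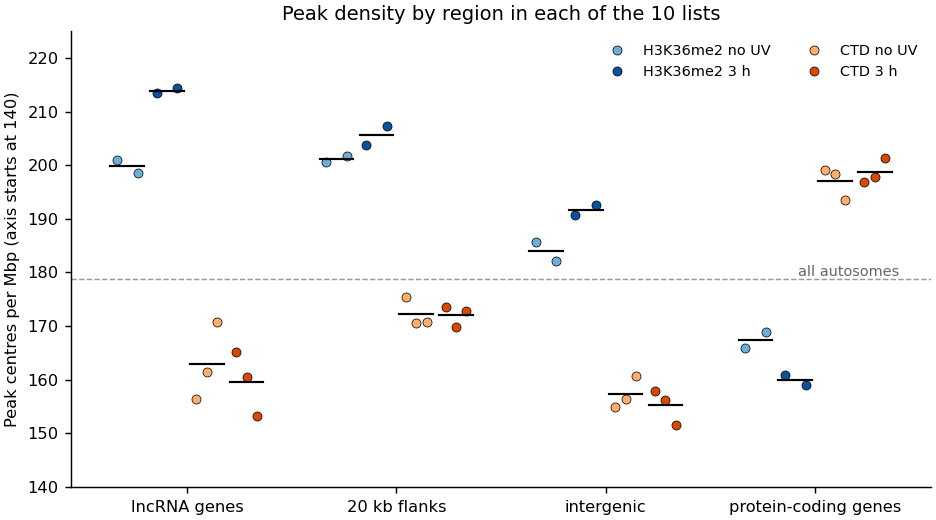
Peak centres per Mbp in lncRNA genes, their 20-kb flanks, intergenic regions and protein-coding genes, one point per list, with a line at each group's mean and the vertical axis starting at 140. The H3K36me2 points of lncRNA genes (198.6 to 214.3) lie above those of protein-coding genes (159.0 to 169.0), and the CTD points (153.2 to 170.8) lie below (193.5 to 201.4).

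The sequence next to the lncRNA genes was much like the genes themselves for H3K36me2. Within 20 kb on either side, without other annotated genes, the H3K36me2 density was 201.1 ± 0.76 peaks per Mbp in unirradiated cells and 205.6 ± 2.51 at 3 h (SD, n = 2 lists each). The log2 ratio of lncRNA genes to these flanks was 0.02 over the 4 lists (exact sign-flip permutation test, p = 0.375). For the CTD the flanks held 172.3 ± 2.77 and 172.1 ± 2.04 peaks per Mbp (SD, n = 3 lists each). The lncRNA genes were 0.936-fold as dense (log2 ratio −0.10, exact p = 0.0625), and that difference did not pass the test.

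Inside the members, exons held more CTD peaks than introns. The CTD density was 192.8 ± 12.8 peaks per Mbp in exons and 161.5 ± 8.24 in introns without UV, and 194.4 ± 8.84 and 157.9 ± 6.70 at 3 h (SD, n = 3 lists). The H3K36me2 density was 205.3 ± 1.38 in exons and 199.6 ± 1.84 in introns without UV, and 212.2 ± 0.58 and 214.0 ± 0.58 at 3 h (SD, n = 2 lists). Exons thus stood apart from introns by more than the spread of the lists for the CTD in both conditions. For H3K36me2 the order of the mean densities turned between the conditions. In percent covered, exons were above introns in both, with 21.3% against 18.1% without UV and 19.5% against 18.0% at 3 h. These differences were not tested.

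After UV the H3K36me2 density of lncRNA genes was higher in both lists than in either list without UV, while that of protein-coding genes was lower. The means were 199.8 ± 1.70 peaks per Mbp in unirradiated cells and 213.9 ± 0.58 at 3 h in lncRNA genes (SD, n = 2 lists each), a ratio of 1.07-fold. In protein-coding genes they were 167.4 ± 2.19 and 159.9 ± 1.28. Intergenic sequence was also higher at 3 h, with 185.8 and 182.2 peaks per Mbp in unirradiated cells and 190.8 and 192.5 at 3 h, and so were the flanks of the members. With 2 lists against 2 the exact permutation test cannot go below 0.333, and it gave p = 0.333 for the lncRNA genes. The same smallest p was reached by the test of whether the 2 kinds of gene moved apart, by 0.16 on the log2 scale or 1.12-fold. Percent covered told the change differently. Members were covered over 18.3% ± 0.82 of their bases without UV and 18.1% ± 0.60 at 3 h, a log2 difference of −0.01 (exact p = 0.667), while protein-coding genes were covered over 14.7% ± 0.13 and 12.5% ± 0.13. The median H3K36me2 peak in members was 638 and 619 bp wide without UV and 569 and 602 bp at 3 h, so there were more peaks at 3 h and they were narrower. Peaks were also narrower at 3 h over all autosomes, with medians of 623 and 614 bp, then 558 and 584 bp.

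Counted over all peaks of each list, the CTD density of lncRNA genes overlapped between the conditions. It was 162.9 ± 7.33 peaks per Mbp in unirradiated cells and 159.6 ± 6.01 at 3 h (SD, n = 3 lists each, log2 difference −0.03, exact permutation test, p = 0.6, where 0.1 is the smallest possible). The CTD covered 9.31% ± 0.46 and 9.17% ± 0.44 of the bases of lncRNA genes (exact p = 0.5), and 12.0% ± 1.56 and 12.3% ± 0.73 of those of protein-coding genes. The difference between lncRNA and protein-coding genes in the CTD's change was −0.04 on the log2 scale (exact p = 0.5).

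GC content went with both the level and the change of H3K36me2 in lncRNA genes. The members were divided into 6 classes of GC content holding 673, 714, 755, 1241, 1026 and 411 genes. In the class under 36% GC the H3K36me2 density was 166.4 ± 7.90 peaks per Mbp in unirradiated cells and 191.2 ± 1.59 at 3 h (SD, n = 2 lists). Between 38% and 40% GC it was 220.6 ± 2.27 and 241.3 ± 0.05, the latter the highest of any class. At 50% GC or more it was 168.6 ± 11.8 and 125.7 ± 2.93. On the log2 scale the change was 0.20, 0.20, 0.13, 0.02, −0.12 and −0.42 from the lowest class to the highest. The lists at 3 h lay above those without UV in the first 3 classes, overlapped them between 40% and 44%, and lay below them in the other 2. Protein-coding genes had the same order, with 0.20, 0.15, 0.07, −0.04, −0.32 and −0.81. The CTD density of members was higher with higher GC in both conditions, from 117.0 ± 23.2 under 36% to 215.2 ± 55.6 at 50% or more without UV, and from 107.5 ± 15.5 to 219.9 ± 46.0 at 3 h (SD, n = 3 lists). The CTD lists differed most from each other in the class of highest GC.

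The difference between lncRNA and protein-coding genes was also seen within classes of GC content, though genes were not matched one by one. At 50% GC or more the median was 52.6% in members and 54.4% in protein-coding genes. In that class the H3K36me2 ratio without UV was 1.08-fold and 0.991-fold. H3K36me2 density was higher in lncRNA than in protein-coding genes in 23 of 24 pairs of GC class and list, at 0.991-fold to 1.38-fold. CTD density was higher in lncRNA genes in 0 of 36 pairs, at 0.80-fold to 0.993-fold. Averaged over the 6 classes, the log2 ratio was 0.32 for H3K36me2 and −0.17 for the CTD, an alternative chosen after seeing the data. Without classes it was 0.34 and −0.30, so the CTD ratio was nearer to even within classes. The part of GC content in the change after UV was otherwise not tested.

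**Figure D2:**
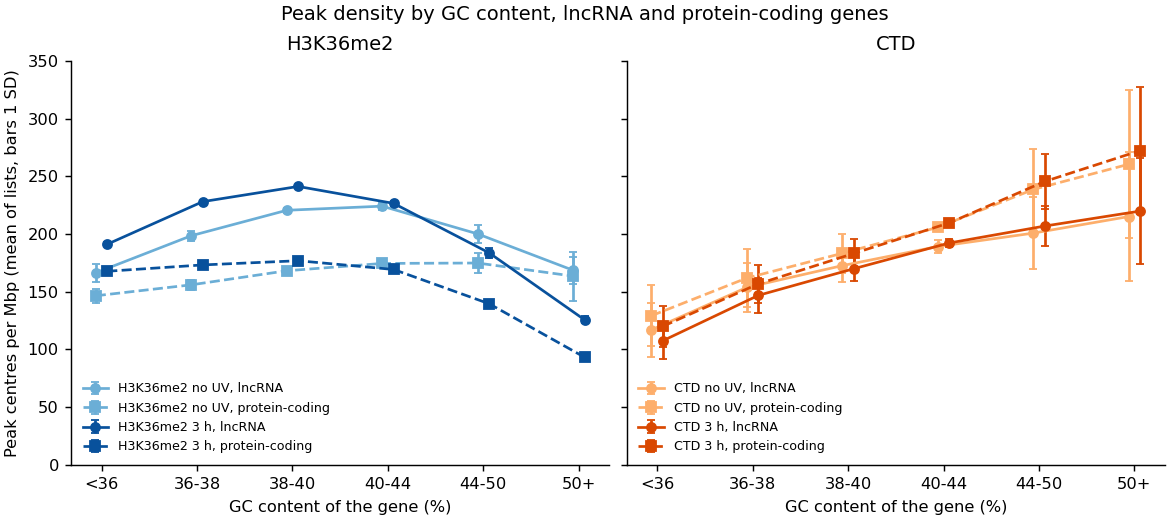
Peak centres per Mbp in 6 classes of GC content, for H3K36me2 (left) and the CTD (right), as the mean of the lists with bars of 1 SD, in lncRNA genes (circles, solid lines) and protein-coding genes (squares, dashed lines). For H3K36me2 the 3-h line of lncRNA genes is above the no UV line under 40% GC (191.2 against 166.4 in the lowest class) and below it at 50% or more (125.7 against 168.6), and for the CTD both lines climb with GC.

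For H3K36me2, length went with density differently in the 2 kinds of gene. Without UV the H3K36me2 density of members was 203.2 ± 2.65 peaks per Mbp in the 2172 members of 5 to 20 kb, 195.6 ± 0.12 in the 1904 of 20 to 100 kb and 201.9 ± 2.90 in the 744 of 100 kb or more (SD, n = 2 lists). At 3 h these were 200.4 ± 1.77, 204.1 ± 0.04 and 221.4 ± 0.72. Protein-coding genes in the same classes held 128.2 ± 11.9, 128.9 ± 6.16 and 184.5 ± 0.03 without UV, and 84.9 ± 0.73, 106.1 ± 1.38 and 184.8 ± 1.32 at 3 h. Without UV, short protein-coding genes were thus far below long ones, and short lncRNA genes were not. Median GC content in the shortest and the longest class was 50.2% and 40.2% in protein-coding genes and 43.0% and 37.6% in members. Its part in this contrast was not tested. For the CTD the members held 183.4 ± 10.3, 164.4 ± 2.03 and 159.4 ± 13.2 without UV in the 3 classes (SD, n = 3 lists), with the shortest members highest. Protein-coding genes had the same order, with 235.7 ± 36.1, 217.6 ± 14.5 and 187.3 ± 3.79.

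Both densities were lowest in the members at 500 kb or more from protein-coding genes. The 858 members within 20 kb of a protein-coding gene, the closest of them 5004 bp away, held 213.0 ± 1.58 H3K36me2 peaks per Mbp in unirradiated cells and 213.1 ± 2.19 at 3 h. The 578 members at 500 kb or more held 171.6 ± 6.09 and 191.9 ± 0.44 (SD, n = 2 lists). Members at 20 to 100 kb held 212.3 ± 1.27 and 223.1 ± 1.22, and those at 100 to 500 kb 197.3 ± 2.05 and 216.4 ± 0.27. At 3 h both of these classes were thus above the nearest one. CTD density went from 180.8 ± 5.13 near protein-coding genes to 130.4 ± 17.2 at 500 kb or more without UV, and from 182.8 ± 3.03 to 121.9 ± 12.9 at 3 h (SD, n = 3 lists). Median GC content was 43.6% in the nearest class and 36.2% in the farthest, and its part in these densities was not tested.

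Around the start of the gene, lncRNA and protein-coding genes differed in shape. In members of 20 kb or more, H3K36me2 covered 22.9% ± 0.54 of the first 1 kb of the gene without UV and 18.6% ± 0.89 between 10 and 20 kb inside. At 3 h these were 20.9% ± 1.06 and 17.9% ± 0.63 (SD, n = 2 lists). In protein-coding genes the first 1 kb was covered less than the body, with 11.2% ± 0.49 against 13.5% ± 0.25 without UV and 7.24% ± 0.39 against 10.2% ± 0.004 at 3 h. H3K36me2 coverage therefore had a peak around the start of lncRNA genes and a dip at the start of protein-coding genes. The CTD covered 11.6% ± 2.10 of the first 1 kb of members against 9.57% ± 1.04 of the body without UV, and 12.1% ± 1.70 against 9.63% ± 0.41 at 3 h (SD, n = 3 lists). In protein-coding genes the same values were 19.2% ± 4.68 against 13.3% ± 2.32, and 20.9% ± 6.64 against 13.8% ± 1.07. GC content also peaked at the start, at 44% in the first 1 kb of members against 40.1% in the body and at 57.6% against 43.3% in protein-coding genes. Its part in the profiles was not tested. Near the ends of the members no such rise was seen, with 18.3% ± 1.15 H3K36me2 coverage in the last 1 kb and 18.3% ± 0.80 between 10 and 20 kb inside without UV.

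**Figure D3:**
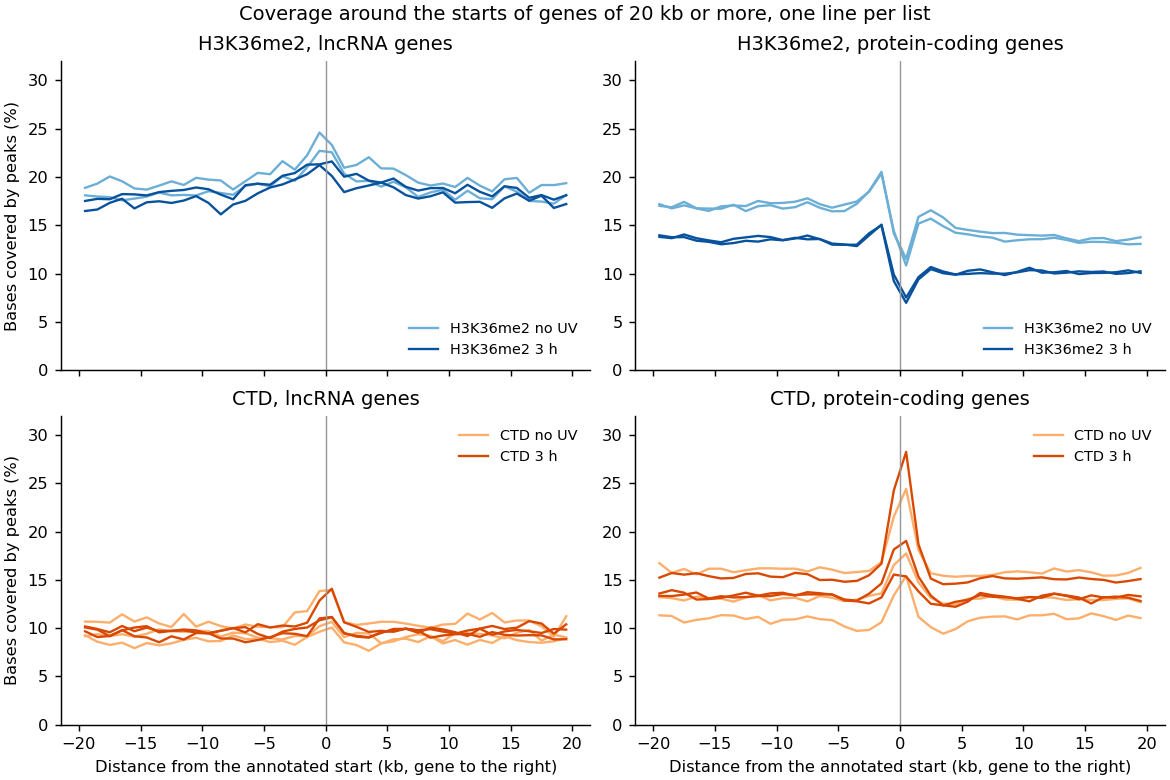
Percent of bases covered by peaks in 1-kb bins from 20 kb before to 20 kb inside the annotated start of genes of 20 kb or more, one line per list, for H3K36me2 (top) and the CTD (bottom) in lncRNA genes (left) and protein-coding genes (right). H3K36me2 has a local maximum at the start of lncRNA genes (22.9% in the first 1 kb without UV) and a dip at the start of protein-coding genes (11.2%), and the CTD peaks at the start of both (11.6% and 19.2%).

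Coverage differed widely among the members. A covered base was present in all 4 H3K36me2 lists in 3740 of the 4820 members, in all 6 CTD lists in 3447 and in all 10 lists in 3074. No peak centre of any list lay in 220 members. Among the 2648 members of 20 kb or more the median H3K36me2 coverage was 14.4% ± 0.52 without UV and 14.5% ± 0.76 at 3 h (SD of the list medians, n = 2). Among the 11207 protein-coding genes of that length the medians were 8.61% ± 0.40 and 5.60% ± 0.11. The CTD medians were 8.69% ± 0.36 and 8.90% ± 0.64 in members and 12.6% ± 1.48 and 13.6% ± 0.59 in protein-coding genes (n = 3 lists).

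The members kept their rank between conditions far better for H3K36me2 than between the antibodies. Across the 2648 members, Pearson's r of coverage was 0.963 and 0.960 between the replicates of H3K36me2 and 0.947 between its mean without UV and at 3 h. CTD replicates of one condition had r of 0.490 to 0.726, and the CTD means without UV and at 3 h had an r of 0.872. H3K36me2 and CTD coverage without UV had an r of 0.551 and a Spearman's rho of 0.595. These are descriptions across genes, which are not independent replicates and share list, GC content and mappability. Spearman's rho of GC content was 0.233 with H3K36me2 coverage and 0.423 with CTD coverage without UV, and 0.0953 and 0.473 at 3 h.

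The member of 20 kb or more with the highest mean H3K36me2 coverage was LINC01447 (chr7:47608465-47629893, plus strand, 49.1% GC). It was covered over 85.0% and 85.8% without UV and 90.4% and 80.8% at 3 h. CTD peaks covered 29.2%, 26.7% and 2.25% of it without UV and 18.0%, 13.2% and 6.98% at 3 h. Nearly the whole gene was thus under H3K36me2 peaks in every list, whereas CTD coverage differed widely among the lists of one condition. Next came ENSG00000288762 on chromosome 14 (84.2% and 88.0% without UV, 80.7% and 62.3% at 3 h), FLJ42969 (81.7%, 81.5%, 80.0% and 69.0% in that order), ENSG00000267737 on chromosome 17 (83.9%, 82.1%, 71% and 71.7%) and ENSG00000225563 on chromosome 20 (80.6%, 73.8%, 66.0% and 73.6%). At the other end, 119 members of 20 kb or more had no H3K36me2 base in any of the 4 lists, and 51 of these had a CTD base in at least 1 list. The first 5 of them in genome order were ENSG00000238009, ENSG00000241860, ENSG00000291215, LINC01409 and LINC01128, all on chromosome 1. The reads were filtered on mapping quality, and how much of these 119 genes could be mapped was not tested. Of the 5 longest members, LINC02055 (1232815 bp) was covered over 14% and 14.2% without UV and 18.1% and 18.3% at 3 h by H3K36me2. CCDC26, the next in length, was covered over 40.4% and 35.0% without UV and 44.6% and 44.7% at 3 h. LINC01320, ENSG00000228566 and ENSG00000229618 lay between 17.4% and 29.2% in the 4 H3K36me2 lists.

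Coverage of single members was then compared between conditions, first by whether the lists overlapped. All 3-h H3K36me2 lists lay above all lists without UV in 518 of the 2648 members (19.6%), against 10.1% of all 13855 genes tested, lncRNA and protein-coding. They lay below in 614 members (23.2%), against 39.6% of all genes. The share above went from 30.6% and 34.2% in the 2 lowest GC classes to 1.08% in members of 50% GC or more, and the share below from 10.5% and 5.79% to 73.1%. Protein-coding genes had the same slope, with 19.8% and 20.1% above in the 2 lowest classes and 0.256% in the highest, and 12.9% and 14.9% below against 78.8%. For the CTD all 3-h lists lay above in 109 members (4.12%, against 5.02% of all genes) and below in 107 (4.04%, against 2.66%). The CTD shares are near those of all genes.

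The limma fit over all 13855 genes, on log2(percent covered + 1) less the median of each list, called 317 members higher and 15 lower at 3 h for H3K36me2 at an adjusted p under 0.05, against 10.0% higher and 3.23% lower among all genes. These 317 rest in large part on the subtraction of the list median, which shifted by −0.42 on the log2 scale from no UV to 3 h. All 119 members at 0 in every H3K36me2 list were among the 317, because a constant 0 gains 0.42 by it. Among the 1070 protein-coding genes called higher 804 were likewise at 0 throughout, so the 10.0% rests mostly on such genes. In 193 of the 317 members and 263 of the 1070 protein-coding genes the 3-h lists lay above both no UV lists. All 15 lower members and all 433 lower protein-coding genes had lists that did not overlap. Without the subtraction 1 member was higher and 2 were lower, of 8 and 47 genes in all. With peak centres in place of coverage limma called 0 members and 0 genes in all, with 813 members higher and 51 lower at an unadjusted p under 0.05. Robust peaks gave 1518 members higher and 150 lower, of 6278 and 2239 genes. With only genes of at least 1% mean coverage, an alternative chosen after seeing the data, 27 of 2408 members were higher and 8 lower, against 46 and 176 of all 11500 genes. Without replicate 1 at 3 h there were 7 and 7 members (39 and 164 of all genes), and without replicate 2 at 3 h 10 and 8 (58 and 200). Without replicate 1 or 2 of the no UV lists 239 and 177 members were higher (1302 and 1345 of all genes), and 20 were lower each time (555 and 359). The median GC content was 38.4% in the 317 and 50.4% in the 15. Their median length was 47981 and 29601 bp.

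The 5 members with the smallest p in the higher direction include 3 genes that were covered in every list. LINC00402 (chr13:74231401-74259976) was covered by H3K36me2 over 8.89% and 9.78% without UV and 22.4% and 21.2% at 3 h, a centred log2 change of 1.57 ± 0.13 (SE, limma adjusted p = 0.0486). ENSG00000287026 on chromosome 2 went from 15.0% and 15.1% to 26.3% and 25.8%, and ENSG00000288535, also on chromosome 2, from 5.54% and 6.21% to 16.0% and 17.8%. In these 3 genes, of 39.5%, 35.3% and 32.6% GC, both lists at 3 h were well above both lists without UV. ENSG00000228679 (0% and 0%, then 0.810% and 0.869%) and LINC01566 (0% and 0%, then 0.872% and 1.06%) were called on about 1% of their bases.

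The 5 members with the smallest p in the other direction fell, and were lower in both lists at 3 h. SCAT1 (chr17:78605233-78632155) was covered over 37.6% and 42.4% without UV and 14.5% and 13.6% at 3 h, a centred log2 change of −1.02 ± 0.11 (SE, limma adjusted p = 0.0486). LINC01814 on chromosome 2 went from 29.3% and 32.9% to 8.97% and 10.8%. ENSG00000291138 on chromosome 1 went from 24.0% and 25.5% to 8.78% and 8.98%. In each of them both lists at 3 h were far below both lists without UV. LINC01029 on chromosome 18 went from 38.8% and 33% to 4.98% and 8.26%, and ENSG00000291079 on chromosome 5 from 6.84% and 6.30% to 0% and 0%. Their GC content was 44.9% to 53%. All 10 genes share the adjusted p of 0.0486, the smallest in the fit. Without centring their adjusted p in limma was 0.0418 to 0.0950.

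**Figure D4:**
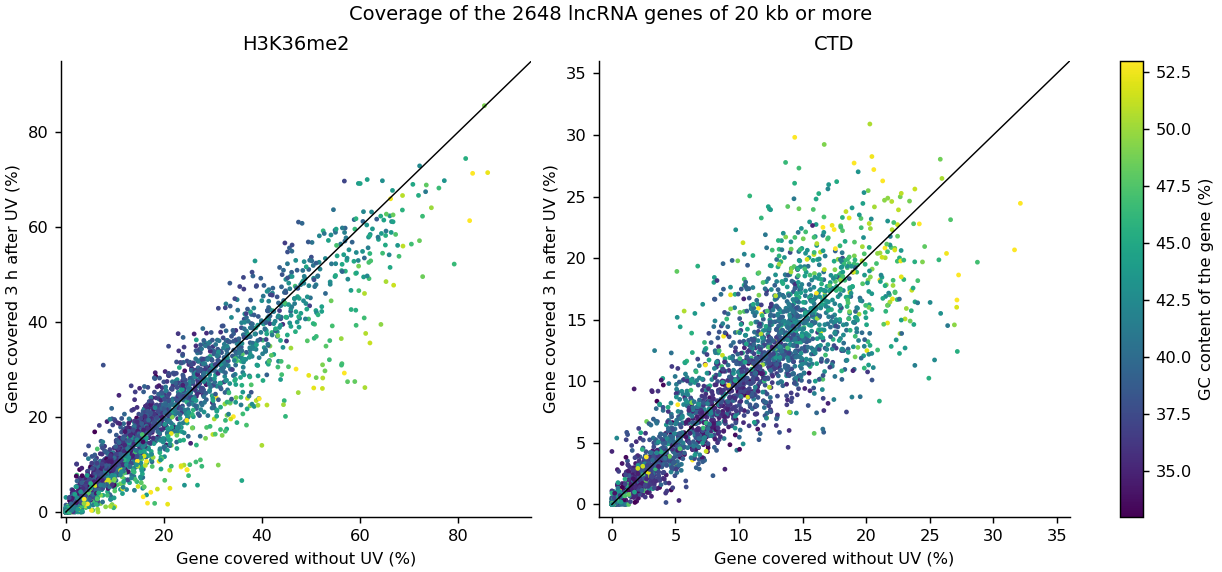
Percent of each of the 2648 members of 20 kb or more covered at 3 h (vertical) against without UV (horizontal), each the mean of the lists, for H3K36me2 (left, to 95%) and the CTD (right, to 36%), coloured by GC content, with a line at equal coverage. For H3K36me2 the points lie along the line, those of low GC mostly above it and those of high GC mostly below, as in LINC00402 (39.5% GC) and SCAT1 (50.4% GC).

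For the CTD the same limma fit called 0 members in either direction at an adjusted p under 0.05, against 0.00% of all genes. At an unadjusted p under 0.05 it gave 41 members higher and 76 lower, against 204 and 239 of all 13855 genes. Robust peaks, defined as those overlapping a peak from another list of their group, gave 15 of the 2648 members higher and 31 lower in limma, against 93 and 83 of all genes. Smallest p in the higher direction had ENSG00000291232 on chromosome 1, with 0.726%, 0% and 0.420% without UV and 8.33%, 5.91% and 1.92% at 3 h, then ENSG00000290896 and LINC02360. In the lower direction it had ENSG00000250038 on chromosome 4, with 2.55%, 7.41% and 5.86% without UV and 0.608%, 0.347% and 0% at 3 h, then ENSG00000261310 and ENSG00000231912. The lists of these genes did not overlap, and their limma adjusted p was 1.00.

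Among lncRNAs linked to DNA damage and p53, 5 of 13 named genes were members, and none passed the test for H3K36me2 or the CTD. Of the 4 long enough for the fit, the median centred log2 change of H3K36me2 was 0.27. It was 0.24 over all genes tested and 0.42 over the 2648 members. A gene of constant coverage gets 0.42 from the subtraction of the list median alone, so a centred change below that is no rise in coverage. PURPL, a p53-induced lncRNA, was covered by H3K36me2 over 21.8% and 20.9% without UV and 20.3% and 20.9% at 3 h. MIR34AHG, the host of the p53 target miR-34a, had 23.6% and 18.7% without UV and 11.5% and 6.14% at 3 h. PVT1, the neighbour of MYC, had 25% and 27.0% without UV and 20.0% and 22.9% at 3 h. Lists of PURPL overlapped, and those of MIR34AHG and PVT1 lay lower at 3 h, as did those of 39.6% of all genes tested and of 73.1% of members at 50% GC or more, the class of MIR34AHG. NORAD, which binds Pumilio proteins, had no H3K36me2 base in any list, and CTD coverage of 0%, 0% and 8.41% without UV and 10.6%, 0% and 3.61% at 3 h.

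Of the 4 members among the nuclear and chromatin lncRNAs, NEAT1 and MALAT1 had CTD peaks and hardly any H3K36me2, and MIAT had both. NEAT1, the scaffold of paraspeckles, was at 0%, 0.0220%, 0% and 0% in the 4 H3K36me2 lists. The CTD covered 5.28%, 23.4% and 19.6% of NEAT1 without UV and 25.1%, 25.1% and 17.9% at 3 h. MALAT1, a lncRNA of nuclear speckles, was at 0%, 2.50%, 0% and 0% for H3K36me2, and at 14.6%, 8.37% and 6.58% for the CTD without UV and 19.9%, 33% and 25.3% at 3 h. In MALAT1 the 3 CTD lists at 3 h lay above the 3 without UV, and in NEAT1 they overlapped. All 3-h CTD lists lay above in 5.02% of all genes of 20 kb or more and in 4.12% of members of that length. MALAT1 held only 2 to 4 CTD peak centres per list. MALAT1 is shorter than the 20 kb the fit required and has no test. MIAT had H3K36me2 over 49.1% and 39.7% without UV and 24.8% and 20.4% at 3 h, and LINC-ROR was at 7.40% or less in each of these lists. Of 11 named nuclear and chromatin lncRNAs 4 were members and 2 were tested, with no call. Their median centred log2 change was −0.05 for H3K36me2 and 0.13 for the CTD, against 0.42 and −0.10 over all members tested.

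Of the snoRNA hosts, SNHG17 and SNHG26 had CTD peaks with little or no H3K36me2. Only 3 of 28 SNHG genes were members. SNHG17 was at 0% in all 4 H3K36me2 lists and at 26.2%, 13.1% and 5.03% for the CTD without UV and 12.9%, 20.4% and 24.2% at 3 h. SNHG26 was at 1.88% in 1 H3K36me2 list and at 0% in the others, with 6.37% to 27.0% for the CTD. SNHG27 stayed at or under 1.10% in all 10 lists. The 1 host tested was not called, at −0.49 on the centred log2 scale for the CTD.

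Of 8 imprinted lncRNAs 3 were members, with no call among the 2 tested. MEG3, which is expressed from the maternal copy, was covered over 10.5% and 11.8% without UV and 10.3% and 7.22% at 3 h. MEG9 lay between 8.81% and 19.7%. H19, also maternally expressed, had no covered base in any of the 10 lists, and how much of it could be mapped was not tested.

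Genes of the mesenchyme, bone and tumour list (9 of 22 were members) spanned nearly the whole range. LINC00511, a lncRNA of tumours, was covered by H3K36me2 over 61.4% and 62.3% without UV and 52.4% and 52.8% at 3 h. LINC01705 had 44.2% and 40.1% without UV and 44.6% and 47.6% at 3 h. UCA1, first described in bladder cancer, had 49.0% and 33.8%, then 52.8% and 74.2%. LINC00460 had 33.3% and 39.7%, then 33% and 27.1%, and was at 0% in all 6 CTD lists. CYTOR, by contrast, was at 0.622% or less in all 10 lists, and how much of it could be mapped was not tested. None of the 6 tested was called. Their median centred log2 change was 0.45 for H3K36me2 and 0.00 for the CTD, against 0.42 and −0.10 over all members tested.

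The microRNA hosts were the largest list, with 39 of 79 genes as members and 30 tested. One of the 30 was called lower, against 3.23% of all genes, and none higher. MIR9-3HG, a host of the neural microRNA miR-9, was covered by H3K36me2 over 11.8% and 21.5% without UV and 1.56% and 2.16% at 3 h, and fell by 2.15 on the centred log2 scale (limma adjusted p = 0.0486), a call that is lost with peak centres, where limma called 0 genes. MIR9-1HG, another host of miR-9, had 8.83% and 10.0% without UV and 0.628% and 2.51% at 3 h and was not called. The median centred log2 change of the list for H3K36me2 was 0.28, against 0.24 over all genes and 0.42 over all members tested. MIR122HG, a host of the liver microRNA miR-122, varied between lists, with 64.5% and 57.2% without UV and 28.9% and 74.5% at 3 h. MIR4432HG had 55.6% and 55.1% without UV and 53.8% and 54.1% at 3 h, and MIR3681HG, which is 868988 bp long, had 44.9% and 42.8%, then 42.6% and 44.3%. At the low end, MIR924HG, which is 593406 bp long, lay between 2.10% and 2.82% in the 4 H3K36me2 lists and between 1.60% and 3.48% in the 6 CTD lists.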

How the data were processed

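Reads were trimmed with Trim Galore 0.6.5, aligned to hg38 with BWA 0.7.17-r1188 and handled with SAMtools 1.7 and bedtools 2.29.2, as the submitters' processing notes and the methods name them. Reads of low mapping quality, duplicates and blacklisted regions were removed. For H3K36me2, single-end and paired-end reads were pooled. The authors called broad peaks per replicate (MACS2 2.2.7.1, stated p of 0.01), although the lowest −log10 p-value in the deposited lists was 1.22 to 1.42. Every deposited peak comes with the authors' fold enrichment, a ratio of ChIP over control signal, and with its p-value and q-value on a −log10 scale. The 10 deposited lists carry no read depth, so precision rests on the spread between lists, and no counting error was computed.

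The members and the lists of genes were chosen with earlier results of these data known. From the peak positions, peak centres and covered bases were counted per gene of GENCODE release 44, in Python 3.11.15 with NumPy 2.4.6, pandas 2.3.3 and SciPy 1.17.1. Two-sided exact permutation tests over lists were used for densities. Coverage of single genes was fitted with limma 3.58.1 (R 4.3.3, trend, Benjamini-Hochberg) on log2(percent covered + 1), less the median of each list, over 13855 genes of 20 kb or more, since shorter genes hold few peaks. Genes were named by a rule. It took the members of 6 lists of lncRNAs, the 5 members of 20 kb or more with the highest and the 5 with the lowest H3K36me2 coverage, the 5 (H3K36me2) or 3 (CTD) of smallest limma p in each direction, the 5 longest members, and the 2 strongest recurrent sites of each antibody outside chromosome 8. One of these sites is not reported here. The functions were tested on simulated data. Alternatives were robust peaks, −log10 p of 2 or more or 3 or more, the top quartile of fold enrichment, another measure, length limits, another pseudocount, no centring, a replicate block and leaving out each replicate in turn. Weights by gene length, a minimum coverage and GC classes were chosen after seeing the data.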

Additional observations from a re-analysis of the deposited data

How the results depend on the processing

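Of the summary values recomputed under each alternative, 140 kept their direction and their side of the threshold or stayed within 1.5 times the count, 22 counts moved further, 19 values turned direction. The density of lncRNA genes relative to protein-coding genes kept its direction under all 11 (H3K36me2, 0.31 to 0.68 on the log2 scale) and 13 alternatives (CTD, −0.43 to −0.15). The CTD ratio lost its exact p of 0.03125 whenever 1 list was left out, since 5 lists cannot go below 0.0625 (−0.32 to −0.28). All differences below are log2 differences between 3 h and no UV unless said otherwise. The H3K36me2 density turned to −0.0127 when percent covered was used. The CTD density turned to 0.11 with robust peaks and 0.14 at a −log10 p of 2 or more, and lay between −0.0579 and 0.00577 when 1 list was left out. H3K36me2 coverage turned to 0.00706 with a −log10 p of 2 or more, 0.10 with peak centres and 0.00678 in genes of 20 kb or more, and lay between −0.0588 and 0.0333 with 1 list left out. CTD coverage turned to 0.11 with robust peaks and 0.0784 at a −log10 p of 2 or more, and lay between −0.0604 and 0.0190 with 1 list left out. The CTD change relative to protein-coding genes lay between −0.0785 and 0.00599 with 1 list left out. The ratio of lncRNA genes to their flanks turned for H3K36me2 to −0.00521 with robust peaks, −0.0299 at a −log10 p of 3 or more and −0.0810 in percent covered. For the CTD it turned to 0.19 with a −log10 p of 3 or more, and passed the exact test (p = 0.03125) at −0.18 with robust peaks and −0.15 in percent covered. For these turns the cause was not tested.

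The numbers of members called by limma for H3K36me2, higher and lower, were 1054 and 56 with all genes of 5 kb or more, 1 and 2 without centring, 0 and 0 with peak centres, 1518 and 150 with robust peaks, 209 and 4 with weights by length, and 27 and 8 with a mean coverage of 1% or more. A pseudocount of 5 gave 346 and 27. With 1 list left out, where the lone list of a group is assumed to vary like the pair of the other, there were 7 to 239 higher and 7 to 20 lower. Robust peaks are chosen by overlap with the other replicate, which ties the replicates to each other. For the CTD robust peaks gave 15 and 31, and the other alternatives 0. Replicates with the same number did not deviate together (correlations of deviations of 0.00923 for H3K36me2 and −0.183, 0.0397 and −0.332 for the CTD), so they share only a number. With the replicate number as a block, limma called 0 members in either direction for H3K36me2 (smallest adjusted p 0.105, 978 higher and 71 lower at an unadjusted p under 0.05) and 0 for the CTD, and the density changes under the block were 0.10 for H3K36me2 and −0.03 for the CTD. Calls of single genes near an adjusted p of 0.0486 therefore rest on 2 lists a group and on the centring.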

Other observations

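The members with a LINC symbol (1460 genes) and those known by an Ensembl identifier alone (2995 genes) differed somewhat in H3K36me2, with the LINC genes higher in both conditions. H3K36me2 density was 209.7 ± 2.38 peaks per Mbp in unirradiated cells and 224.4 ± 0.41 at 3 h in the LINC genes, and 196.2 ± 1.19 and 211.8 ± 0.54 in the genes without a symbol (SD, n = 2 lists). The 39 microRNA hosts together had 187.7 ± 0.94 and 196.8 ± 2.81, and the highest CTD density of these 3 classes, at 181.9 ± 4.75 without UV and 182.7 ± 1.54 at 3 h (SD, n = 3 lists).

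Densities of members differed among chromosomes. H3K36me2 density without UV was lowest on chromosome 13, at 146.0 ± 7.17 peaks per Mbp over 193 members, and highest on chromosome 2, at 251.0 ± 1.72 over 435 members (SD, n = 2 lists). The CTD was also lowest on chromosome 13, at 75.3 ± 3.47 peaks per Mbp in unirradiated cells and 75.7 ± 3.74 at 3 h, and reached 210.9 ± 8.52 on chromosome 2 without UV (SD, n = 3 lists). At 3 h the H3K36me2 density was below both lists without UV on chromosomes 17, 19, 20 and 22, where members had a median GC content of 43.4% to 46.3%, and above them on the other chromosomes except 13 and 16, where the lists overlapped. On chromosome 22 it went from 152.2 ± 17.8 to 115.9 ± 0.43. Copy number of the chromosomes in U2OS was not measured here, and its part in these levels was not tested.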
